A study of Mus musculus with 2 samples.

Results

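The 10 genes described here encode proteins of the tight junction: the claudins Cldn3, Cldn4, Cldn5, Cldn7, Cldn10 and Cldn18, occludin (Ocln), junctional adhesion molecule A (F11r), the coxsackievirus and adenovirus receptor (Cxadr) and the scaffold protein ZO-1 (Tjp1). They were found by symbol, with no threshold on a measured value, among the 28692 genes listed for both libraries, where each symbol stands once. The data are single-cell RNA sequencing (10x) of lung cells from wild-type C57BL/6 mice, with 1 library for each of 2 groups. The tumor-bearing library was made at day 14 after 1000000 LLC (Lewis lung carcinoma) cells carrying luciferase had been placed under the skin of the back, and the control was not treated. Both were antibody sorted for CD45-, SftpC+ cells, a sort aimed at alveolar type 2 (AT2) cells, which make surfactant. Whether a library held cells of 1 mouse or of several is not given, and with 1 library per group no difference below has a replicate check or a p-value.

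Tight junctions seal the space between neighbouring epithelial or endothelial cells. Claudins are the membrane proteins that set how tight the seal is and which ions pass, occludin and the immunoglobulin-like proteins F11r and Cxadr sit beside them, and ZO-1 ties the strands to actin. In the lung this seal keeps fluid out of the air space. CLDN18 is the claudin best known from alveolar epithelium, CLDN5 from endothelium, and CLDN4 from injured alveolar epithelium.

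The libraries held 84448360 (tumor-bearing) and 91498124 (control) UMIs (unique molecular identifiers, counted once per captured transcript), and 8193 and 11007 barcodes had at least 2000 UMIs. AT2 barcodes were those in which Sftpc, the surfactant protein C gene, took at least 15% of the UMIs. They numbered 6729 (82.1%) and 10008 (90.9%), with medians of 8976 and 6939 UMIs, and all 12 AT2 markers reached 20 CPM in them (UMIs of a gene per 1000000 UMIs). Few barcodes lay near the 15% limit: 75 and 104 within 2.5 percentage points under it and 154 and 218 within 2.5 points above it. The remaining barcodes were clustered without the junction genes and named by marker genes, which gave 130 and 278 AT1-like cells (the flat gas exchange cells), 271 and 67 club-like, 223 and 276 ciliated-like, 19 and 43 basal-like and 478 and 54 endothelial-like cells. The endothelial-like cells lie outside what the sort was meant to keep, and all 11 endothelial markers reached 20 CPM in them. A further 343 and 281 barcodes were unnamed or of another kind. The libraries shared 128 barcode sequences, near the 122 that the product of their shares gives. Droplets with 1 to 100 UMIs, taken here as empty, carried free RNA, and the level of each gene in them is given where it bears on a result.

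Each gene is placed on the mouse genome build GRCm38 (mm10) by the GENCODE vM21 annotation, and all 10 are protein-coding. Cldn3 lies at chr5:134986214-134987472 (+ strand) and Cldn4 at chr5:134945119-134946934 (- strand), 39.3 kb apart. Cldn5 lies at chr16:18776847-18778262 (+), Cldn7 at chr11:69964779-69967885 (+), Cldn10 at chr14:118787908-118875489 (+) and Cldn18 at chr9:99689461-99717267 (-). Ocln lies at chr13:100496507-100552718 (-), Tjp1 at chr7:65296165-65527781 (-), F11r at chr1:171437535-171464603 (+) and Cxadr at chr16:78301489-78359774 (+). Exons of Cldn3 overlap the antisense gene Wbscr25, and exons of Cxadr overlap Btg3 on the opposite strand. The sources used here do not say whether counting used the strand, so reads of these pairs may not be told apart.

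The 250 bases before the start of Cldn3, Cldn5, Cldn10 and Cldn18 are shown because each of these claudins had its highest level in a different cell class (below), so their start regions are what a reader would compare next. RefSeq start regions on GRCm38.p6 were found for 9 of the 10 genes, all but Cxadr. Cldn10 and Cldn18 have 2 starts each, and UMI counts per gene do not tell which start was used. Capitals mark matches on either strand to 6 short motifs: the NKX2-1 core (letters CTCAAG), the ETS core (letters CCGGAAG), the SOX core (letters ACAAAG), the grainyhead core (letters AACNGG), the GC box (letters GGGCGG) and the TATA box (letters TATAAA).
Cldn3, chr5:134985964-134986213, + strand: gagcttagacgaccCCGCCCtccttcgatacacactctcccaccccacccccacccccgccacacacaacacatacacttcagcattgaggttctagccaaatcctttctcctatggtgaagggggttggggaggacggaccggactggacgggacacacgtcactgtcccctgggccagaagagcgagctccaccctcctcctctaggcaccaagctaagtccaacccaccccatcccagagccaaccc
Cldn5, chr16:18776597-18776846, + strand: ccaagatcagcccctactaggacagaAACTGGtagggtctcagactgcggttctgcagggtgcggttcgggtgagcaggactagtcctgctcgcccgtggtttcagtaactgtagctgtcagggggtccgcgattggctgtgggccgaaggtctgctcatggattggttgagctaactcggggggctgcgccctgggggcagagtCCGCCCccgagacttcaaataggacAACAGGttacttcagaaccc
Cldn10, upstream start, chr14:118787621-118787870, + strand: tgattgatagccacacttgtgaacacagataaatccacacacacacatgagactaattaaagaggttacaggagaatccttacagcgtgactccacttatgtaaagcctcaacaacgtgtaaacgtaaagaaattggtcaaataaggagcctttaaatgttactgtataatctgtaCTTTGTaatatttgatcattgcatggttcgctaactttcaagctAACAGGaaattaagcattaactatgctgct
Cldn10, downstream start, chr14:118854700-118854949, + strand: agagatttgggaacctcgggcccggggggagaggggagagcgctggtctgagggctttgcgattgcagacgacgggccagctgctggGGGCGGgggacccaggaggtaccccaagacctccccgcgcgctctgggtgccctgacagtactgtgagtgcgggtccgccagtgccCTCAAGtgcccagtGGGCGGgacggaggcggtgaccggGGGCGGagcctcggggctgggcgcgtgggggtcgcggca
Cldn18, upstream start, chr9:99717268-99717517, - strand: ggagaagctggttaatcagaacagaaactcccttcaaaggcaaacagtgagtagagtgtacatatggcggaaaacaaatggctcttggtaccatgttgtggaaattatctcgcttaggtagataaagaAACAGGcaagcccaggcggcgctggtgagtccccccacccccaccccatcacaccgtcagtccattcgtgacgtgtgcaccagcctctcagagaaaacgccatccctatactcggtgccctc
Cldn18, downstream start, chr9:99710064-99710313, - strand: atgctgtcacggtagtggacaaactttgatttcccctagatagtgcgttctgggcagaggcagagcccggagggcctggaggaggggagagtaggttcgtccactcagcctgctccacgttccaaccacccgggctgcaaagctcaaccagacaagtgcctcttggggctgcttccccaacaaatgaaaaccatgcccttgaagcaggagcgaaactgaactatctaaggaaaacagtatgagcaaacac

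The Cldn3 window held a single GC box, 236 bases before the start. The Cldn5 window held the grainyhead core at 224 and 20 bases and a GC box at 45 bases before the start. The upstream Cldn10 window was poor in G and C (36%) and held the SOX and the grainyhead core, while the downstream window (72.4% G and C) held the NKX2-1 core at 77 bases and 3 GC boxes. The upstream Cldn18 window held the grainyhead core at 122 bases, and the downstream window held none of the 6 motifs. Over the 32851 start regions of the same length, 13.3% held the NKX2-1 core, 6.91% the ETS core, 16.5% the SOX core, 32.1% the grainyhead core, 32.7% a GC box and 12.4% a TATA box, so single matches of this kind are common.

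Among AT2 barcodes and the 5 named classes, each gene had its highest level in the same class in both libraries: ciliated-like cells for Cldn3, Cldn4 and Cldn7, club-like cells for Cldn10, endothelial-like cells for Cldn5 and Tjp1, and AT1-like cells for Cldn18, Ocln, F11r and Cxadr. The separate intervals of the top class and the next overlapped for Cldn4 (ciliated-like and basal-like) and for Tjp1 (endothelial-like and AT1-like). In the tumor-bearing library they also did for Cxadr (AT1-like and basal-like). No ratio between these classes was computed, so their order was not tested. Levels are in CPM over all UMIs of a class, with exact Poisson intervals at 95%, and are compared within a gene only. These intervals cover counting error alone and not differences between mice. CPM also depends on what else a class expresses. The 9 club markers summed to 636383 and 588478 CPM in club-like cells. The 12 AT2 markers summed to 360247 and 357793 CPM in AT2 barcodes, and the 12 AT1 markers to 60080 and 55825 CPM in AT1-like cells. Large sums lower the CPM of every other gene there, and class orders and folds were not recomputed without these markers. The plot of levels by cell class shows all 10 genes.

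**Figure D1:**
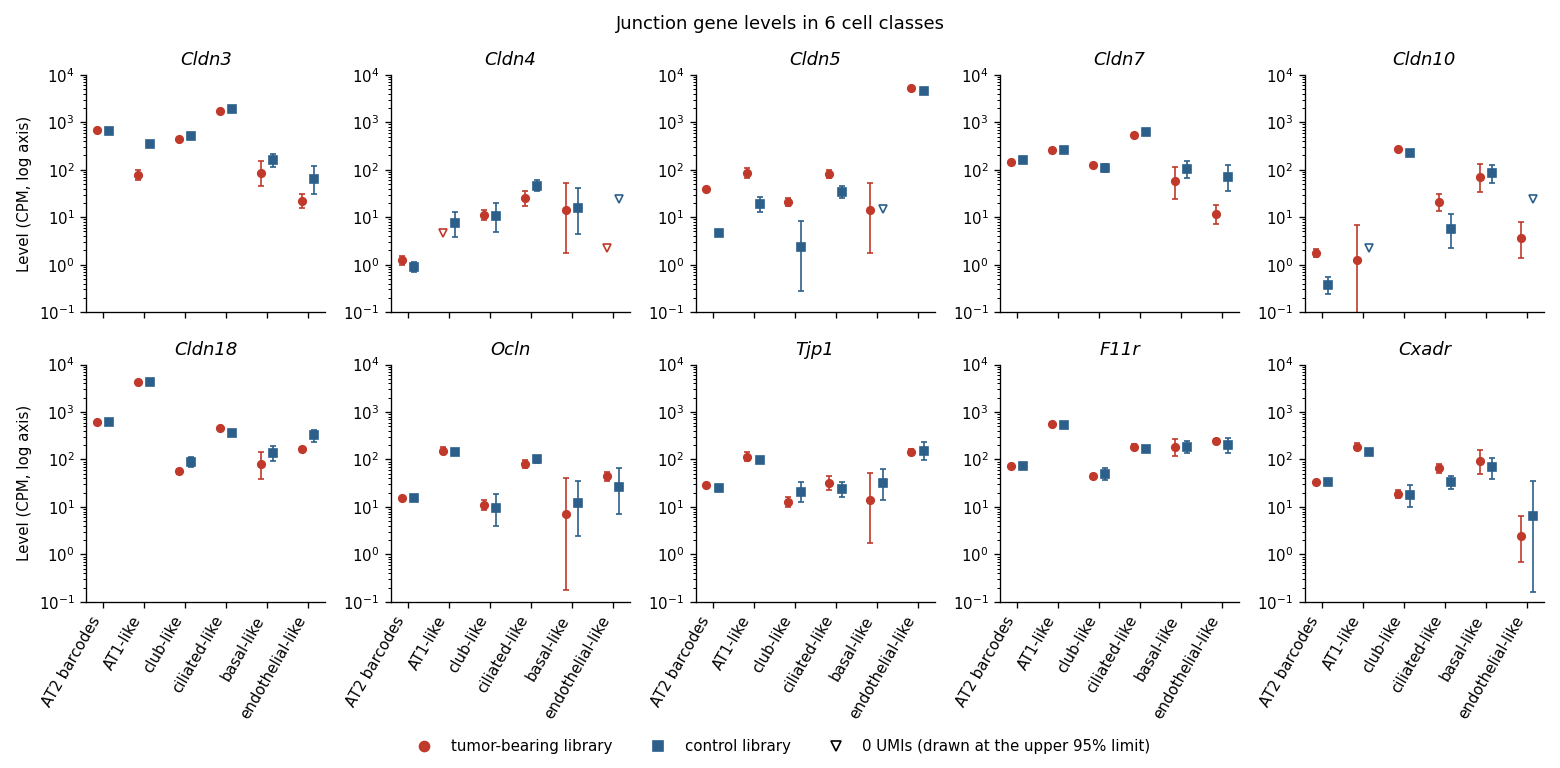
Level of each of the 10 junction genes (CPM, log axis) in AT2 barcodes and 5 cell classes, with 95% Poisson intervals; circles are the tumor-bearing and squares the control library, and open triangles mark 0 UMIs at the upper limit. Cldn18 stands at 4324 and 4243 CPM in AT1-like cells, Cldn5 at 5231 and 4469 CPM in endothelial-like cells, and the 2 libraries lie close together for most genes and classes.

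Cldn18, the alveolar claudin, measured 4324 CPM (4182 to 4469) in AT1-like cells of the tumor-bearing library and 4243 CPM (4143 to 4344) in those of the control library. In AT2 barcodes it measured 611 and 615 CPM, so that AT1-like cells were 7.07-fold (6.83 to 7.32) and 6.89-fold (6.72 to 7.07) above AT2 barcodes. When every cell was thinned to 2000 UMIs, 100% and 98.9% of AT1-like cells and 66.8% and 67.8% of AT2 barcodes held a Cldn18 UMI, against 100%, 99.6%, 96.7% and 95.2% before thinning. Ciliated-like cells had 454 and 354 CPM, endothelial-like cells 163 and 321 CPM, and club-like cells, the lowest class, 56.2 and 89.9 CPM. Empty droplets carried 513 and 633 CPM of Cldn18, above every class other than AT1-like cells in the control library, and above every class other than AT1-like cells and AT2 barcodes in the tumor-bearing library. Free RNA was estimated to make up 6.39% and 8.21% of the UMIs of ciliated-like and 6.56% and 8.86% of those of endothelial-like cells. Subtracting it left 449 and 328 CPM of Cldn18 in the former and 138 and 286 CPM in the latter, but 0 and 6 UMIs in club-like cells.

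Cldn3 and Cldn7, claudins of many simple epithelia, shared ciliated-like cells as the highest of these classes. Cldn3 measured 1732 CPM (1659 to 1807) in ciliated-like cells of the tumor-bearing library and 1877 CPM (1802 to 1955) in those of the control library, 2.52-fold and 2.89-fold above the 689 and 650 CPM of AT2 barcodes. Club-like cells followed with 437 and 504 CPM, and endothelial-like cells had the lowest levels, 22.3 and 64.1 CPM. Cldn7 measured 541 and 611 CPM in ciliated-like cells, 255 and 262 CPM in AT1-like cells, 144 and 157 CPM in AT2 barcodes and 124 and 110 CPM in club-like cells, the same order in both libraries. The genes parted in AT1-like cells. There Cldn7 was 1.77-fold and 1.67-fold above AT2 barcodes, and Cldn3 stood at 0.114 and 0.531 times their level.

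Ocln, F11r and Cxadr followed Cldn18 in having AT1-like cells on top. Ocln measured 154 and 146 CPM there against 15.1 and 15.3 CPM in AT2 barcodes, a 10.2-fold (8.38 to 12.3) and 9.59-fold (8.30 to 11.04) difference, with ciliated-like cells second at 80.5 and 101 CPM. F11r measured 549 and 521 CPM in AT1-like cells and 73.0 and 73.7 CPM in AT2 barcodes, 7.52-fold and 7.07-fold apart, and endothelial-like cells were second at 242 and 199 CPM. Cxadr measured 186 and 146 CPM in AT1-like cells and 34.2 and 32.7 CPM in AT2 barcodes, 5.44-fold and 4.47-fold apart. Endothelial-like cells had the lowest Cxadr level, with 4 UMIs and 1 UMI in all (2.48 and 6.41 CPM).

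Tjp1, the scaffold, was spread more evenly over the classes. It measured 145 CPM (127 to 165) and 154 CPM (98.6 to 229) in endothelial-like cells and 115 CPM (92.4 to 140) and 98.3 CPM (83.7 to 115) in AT1-like cells. The intervals of these top classes overlapped in both libraries, and their order was not tested. AT2 barcodes had 28.7 and 24.9 CPM, 3.98-fold and 3.95-fold under AT1-like cells, and club-like cells had 12.7 and 21.0 CPM.

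Cldn5 and Cldn10 were highest outside the alveolar epithelium. Cldn5 measured 5231 CPM (5120 to 5344) and 4469 CPM (4143 to 4814) in endothelial-like cells, and 97.7% and 96.3% of those cells held a Cldn5 UMI after thinning. The next class stood at 86.2 CPM (AT1-like) in the tumor-bearing and 34.3 CPM (ciliated-like) in the control library, 60.7-fold and 130-fold lower. Cldn10, an ion channel-forming claudin, measured 279 CPM (266 to 294) and 230 CPM (199 to 264) in club-like cells and 71.6 and 83.7 CPM in the few basal-like cells. In AT2 barcodes it was near absent, at 1.73 and 0.372 CPM (109 and 27 UMIs), below the 36.6 and 3.02 CPM of empty droplets.

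Basal-like cells were too few for a ratio between the libraries. Their best measured member was F11r, at 179 CPM (116 to 264) from 25 UMIs and 183 CPM (134 to 245) from 46 UMIs. Cldn3 gave 85.9 and 159 CPM there from 12 and 40 UMIs, with overlapping intervals. Cxadr gave 93.0 and 67.8 CPM, second only to AT1-like cells. The other members rested on between 0 and 34 UMIs a library.

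The comparison between the libraries asks whether lung epithelium under tumor bearing differs from control lung epithelium. A gene was counted as past the fold when it had at least 20 CPM in either library, a ratio (tumor-bearing over control) of at least 1.5 or at most its inverse, and an exact 95% interval that left out 1. In AT2 barcodes 7 of the 10 members reached 20 CPM, and 1, Cldn5, was past the fold, upward. Over all 4036 genes at that level 2.25% were past the fold, 1.36% upward and 0.892% downward. The median log2 ratio, computed with 1 CPM added, was 0.06 over the 7 members and -0.04 over all genes. The measured members other than Cldn5 had ratios between 0.920 and 1.16. Cldn4, Cldn10 and Ocln were under the 20 CPM minimum.

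Cldn18 measured 611 CPM in the tumor-bearing and 615 CPM in the control AT2 barcodes, a ratio of 0.993 (0.980 to 1.01). Cldn3 measured 689 and 650 CPM, a ratio of 1.06 (1.05 to 1.07). Cldn7 measured 144 and 157 CPM, a ratio of 0.920 (0.895 to 0.946). For Cldn3 and Cldn7 the counts separate the libraries, but by under 10 percent, far inside the fold used here. F11r stood at 0.991 (0.952 to 1.03) with 73.0 and 73.7 CPM, and Cxadr at 1.04 (0.984 to 1.11). Tjp1, at 28.7 and 24.9 CPM, had a ratio of 1.16 (1.08 to 1.23), and Ocln, just under the 20 CPM minimum, one of 0.991 (0.907 to 1.08). Cldn10 had a ratio of 4.65 (3.03 to 7.38) at levels under 2 CPM, while in empty droplets its ratio was 12.1 (5.78 to 30.6). The summed level of the 9 club markers, whose cells express Cldn10, was 125954 and 23853 CPM in empty droplets and 15975 and 12876 CPM in AT2 barcodes, where 7 and 5 of them reached 20 CPM and none was at 0. After thinning, the AT2 barcodes without a Cldn4 UMI had 9301 and 10013 CPM of the club marker Cbr2. They had 6325 and 2506 CPM of Scgb1a1, so the sum joined markers with unlike differences between the libraries. The part of free RNA in the Cldn10 difference was not tested.

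**Figure D2:**
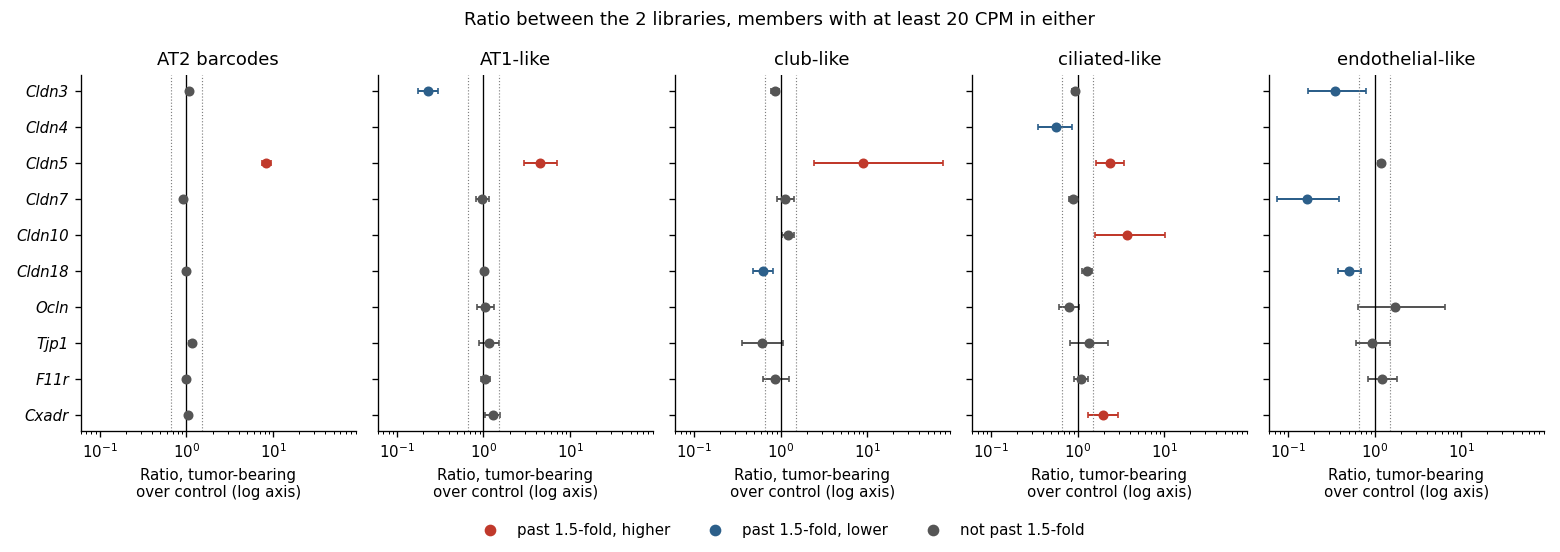
Ratio of tumor-bearing over control level (log axis) with its exact 95% interval, for each member that reached 20 CPM, in AT2 barcodes and 4 cell classes; dotted lines mark the 1.5-fold limits, red and blue points lie past them. Cldn5 is past the limit upward in every panel but the endothelial-like one, where it stands at 1.17.

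Cldn5 measured 39.4 CPM (37.8 to 41.0) in tumor-bearing and 4.70 CPM (4.22 to 5.23) in control AT2 barcodes, a ratio of 8.37 (7.47 to 9.40). It was found in 824 of 6729 AT2 barcodes (12.2%) and in 239 of 10008 (2.39%), and after thinning in 3.94% and 0.899%. Empty droplets carried 161 and 17.7 CPM of Cldn5, a ratio of 9.11 (6.66 to 12.8), and the AT2 level was 24.5% and 26.6% of the level in empty droplets. All 11 endothelial markers were detected in AT2 barcodes of both libraries, at summed levels of 152 and 39.5 CPM, and 3 and 0 of them reached 20 CPM. The Cldn5 difference in AT2 barcodes thus came with a difference in endothelial markers and in free RNA.

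The UMIs of Cldn5 were concentrated in few AT2 barcodes. In the cluster of AT2 barcodes led by Inmt, Mfap4 and Gpx3 (560 and 208 barcodes), the level was 278 and 98.4 CPM, and that cluster held 1596 of the 2478 and 148 of the 341 Cldn5 UMIs. In the 4 largest AT2 clusters it lay between 8.51 and 10.7 CPM in the tumor-bearing and between 2.27 and 2.61 CPM in the control library. Barcodes with 2 or more endothelial marker UMIs (994 and 331) had 178 and 59.5 CPM, and those among them with 10 or more (183 and 23) had 773 and 483 CPM. Barcodes with none (4085 and 8119) had 9.15 CPM (8.19 to 10.2) and 2.21 CPM (1.84 to 2.63), a ratio of 4.14 (3.36 to 5.12). Without the cluster led by Inmt, Mfap4 and Gpx3, without barcodes holding markers of other cells, with the large clusters weighted equally, or after the empty droplet profile was subtracted, Cldn5 no longer reached 20 CPM and so was not counted. Its log2 ratio was then 2.14, 1.35 and 1.66 in that order, still upward, and could not be computed after the subtraction. The subtraction took 25.0% and 34.2% of AT2 UMIs as free RNA. Each share was a median over marker lists of other cells, and in both libraries it equalled the value of the endothelial list. Both lay above the Cldn5 shares of the empty droplet level given above, so losing Cldn5 there was fixed in advance. In endothelial-like cells themselves Cldn5 had a ratio of 1.17 (1.08 to 1.27), inside the fold, and 1.43 (1.29 to 1.59) in the largest of their clusters.

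**Figure D3:**
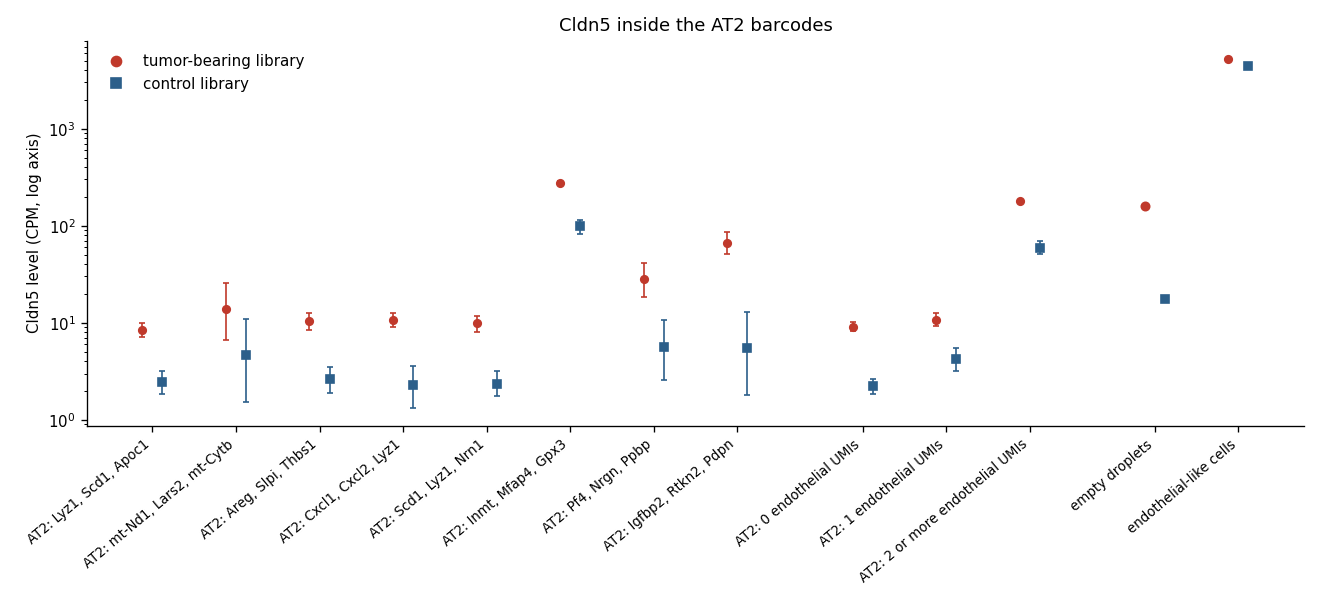
Cldn5 level (CPM, log axis) in AT2 barcodes by cluster (named by leading genes) and by their number of endothelial marker UMIs, in empty droplets and in endothelial-like cells, with 95% Poisson intervals (none drawn for empty droplets). The tumor-bearing library (circles) lies above the control (squares) throughout, and among the groups of AT2 barcodes drawn here both are highest in the cluster led by Inmt, Mfap4 and Gpx3, at 278 and 98.4 CPM.

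In AT1-like cells 8 members reached 20 CPM and 2 were past the fold, Cldn3 downward and Cldn5 upward, where 9.65% of all genes were. For 5 members the interval of the ratio held 1: it was 1.02 (0.978 to 1.06) for Cldn18, 1.05 (0.938 to 1.18) for F11r, 1.05 (0.841 to 1.31) for Ocln, 0.971 (0.819 to 1.15) for Cldn7 and 1.16 (0.892 to 1.51) for Tjp1. Cxadr leaned upward at 1.27 (1.03 to 1.57), inside the fold. Cldn5 measured 86.2 and 19.05 CPM, a ratio of 4.52 (2.92 to 7.15), beside endothelial markers that summed to 348 and 120 CPM in the same cells (6 and 3 of 11 at 20 CPM, none at 0). The part of endothelial RNA in it was not tested.

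Cldn3 measured 78.8 CPM (60.7 to 101) in the tumor-bearing and 345 CPM (317 to 375) in the control AT1-like cells, a ratio of 0.228 (0.173 to 0.296). After thinning it was found in 10.0% and 39.6% of them. The AT1-like cells formed a pair of clusters that differed in Cldn3. The cluster led by Igfbp2 (118 and 174 cells) had 40.6 and 78.3 CPM, and the cluster with Serpinb9, Akap5 and Gprc5a among its leading genes (12 and 104 cells) had 667 and 1038 CPM. The second cluster, which made up 12 of 130 and 104 of 278 AT1-like cells, thus had far more Cldn3 in both libraries. Within the clusters the ratios between libraries were 0.519 (0.334 to 0.787) and 0.643 (0.437 to 0.915), both nearer to 1 than over the whole class. Summed AT2 markers were 13198 and 20401 CPM in the first and 21279 and 39944 CPM in the second cluster, with none of the 12 at 0, and their part was not tested. With classes taken from markers the ratio was 0.743 (0.679 to 0.813), inside the fold.

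**Figure D4:**
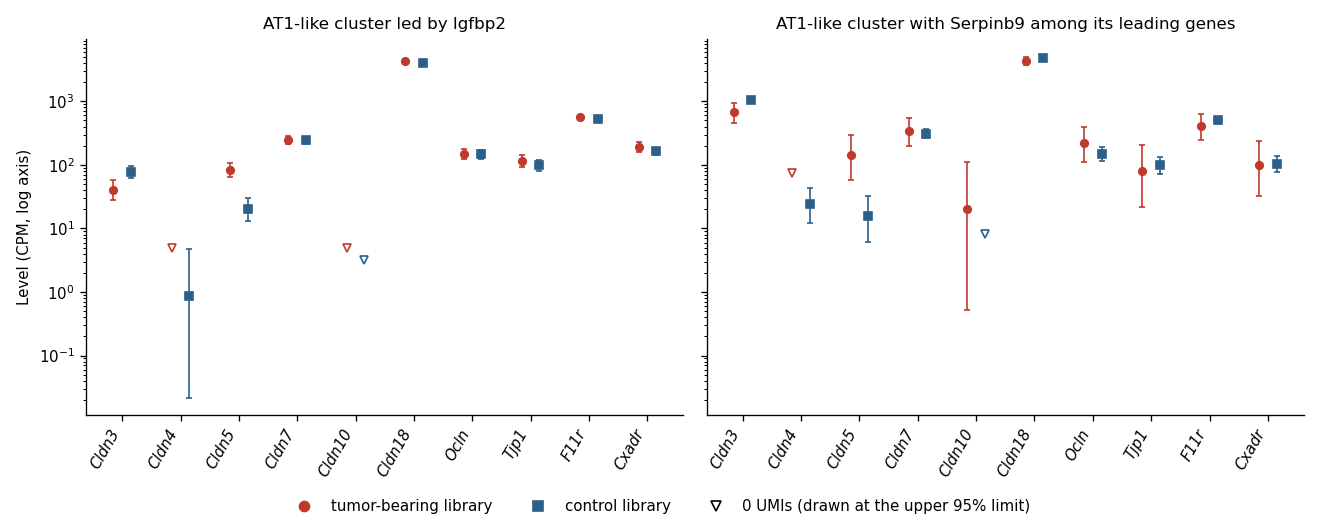
Level of the 10 genes (CPM, log axis) in the pair of AT1-like clusters, tumor-bearing (circles) and control (squares), with 95% Poisson intervals and triangles for 0 UMIs. Cldn3 stands at 40.6 and 78.3 CPM in the first and 667 and 1038 CPM in the second cluster, while Cldn18 lies between 4001 and 4869 CPM in all 4 groups of cells.

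Barcodes that carried AT1 and AT2 markers together had intermediate levels of the AT1-high members. They were a cluster of AT2 barcodes led by Igfbp2, Rtkn2 and Pdpn (58 and 89) and an unnamed cluster with median Sftpc shares of 12.7% and 12.2% (24 and 65). Cldn18 measured 1562 and 1739 CPM in the former and 2057 and 2323 CPM in the latter, between AT2 barcodes and AT1-like cells. F11r measured 197 and 187, then 285 and 258 CPM. Ocln measured 51.3 and 32.9, then 74.9 and 86.2 CPM. Cldn3 went the other way, with 430 and 555, then 415 and 355 CPM. The unnamed cluster had medians of 14348 and 11904 UMIs, above the AT2 medians, and whether its droplets held more than 1 cell was not tested.

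In club-like cells 7 members reached 20 CPM and 2 were past the fold, against 11.6% of all genes. Of the 2488 genes at that level 44 were higher and 244 lower, and their median log2 ratio was -0.18. Cldn10, the member highest there, was not among them, with 279 and 230 CPM and a ratio of 1.22 (1.05 to 1.42), nor was Cldn3, with 437 and 504 CPM and 0.867 (0.783 to 0.963). Cldn18 measured 56.2 and 89.9 CPM from 314 and 77 UMIs, a ratio of 0.626 (0.486 to 0.814). Summed AT2 markers stood at 28517 and 40773 CPM in the same cells (11 and 12 of 12 at 20 CPM). Summed AT1 markers stood at 1105 and 1629 CPM (5 and 7 of 12 at 20 CPM). The part of AT2 and AT1 RNA was not tested. The main club-like cluster, led by Scgb1a1, had a Cldn18 ratio of 0.784 (0.587 to 1.06), and the smaller one, led by Bpifa1, 0.204 (0.111 to 0.382) from 24 and 6 cells. Dividing by the median ratio of all genes gave 0.709, inside the fold, and subtracting the empty droplet profile left 0 and 6 UMIs. Cldn5 measured 21.1 and 2.33 CPM from 118 and 2 UMIs, a ratio of 9.05 (2.45 to 75.6), with endothelial markers at 83.8 and 45.5 CPM (1 of 11 at 20 CPM in each library, 5 at 0 in the control), and it was lost in 4 of 7 alternatives.

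In ciliated-like cells all 10 members reached 20 CPM in at least 1 library and 4 were past the fold, against 7.5% of all genes. Cldn3 and Cldn7 were inside it, at 0.923 (0.870 to 0.979) and 0.886 (0.798 to 0.984). Cldn18 was inside it too, at 1.28 (1.13 to 1.46). Its ratios in the pair of ciliated-like clusters were 1.13 (0.920 to 1.40) and 1.73 (1.48 to 2.04). Cxadr measured 65.2 CPM (51.8 to 81.1) and 33.5 CPM (24.2 to 45.3), a ratio of 1.95 (1.32 to 2.90) that stayed past the fold under all 7 alternatives run. The pair of ciliated-like clusters gave ratios of 2.53 (1.45 to 4.63) and 1.40 (0.760 to 2.57) for it, both upward, the second inside the fold. Cldn4 measured 25.8 and 46.3 CPM from 32 and 58 UMIs, a ratio of 0.557 (0.350 to 0.871). Inside the same clusters the Cldn4 ratios were 0.942 (0.397 to 2.29) and 0.583 (0.319 to 1.02), and the call was lost with classes from markers or with all barcodes of the cluster kept.

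Cldn5 measured 81.3 and 34.3 CPM in ciliated-like cells, a ratio of 2.37 (1.64 to 3.47), from 101 UMIs in 22 of 223 cells and 43 UMIs in 11 of 276, beside endothelial markers at 304 and 125 CPM (5 and 2 of 11 at 20 CPM). When the barcodes with the highest doublet scores were removed, 14 and 43 UMIs remained and the direction turned, to a ratio of 0.357 (0.180 to 0.666). Before that removal, 1 ciliated-like cluster (66 and 128 cells) held 91 and 39 Cldn5 UMIs, a ratio of 3.55 (2.42 to 5.31). Its endothelial markers summed to 789 and 227 CPM. The other cluster (157 and 148 cells) held 10 and 4, a ratio of 1.85 (0.534 to 8.09), with endothelial markers at 50.2 and 16.6 CPM. Cldn10 measured 20.9 and 5.59 CPM from 26 and 7 UMIs, a ratio of 3.75 (1.58 to 10.2), in cells whose summed club markers were 46302 and 26714 CPM (8 and 6 of 9 at 20 CPM, 1 at 0 in each). It was lost at a 5000 UMI minimum, with doublet scores removed, with the empty profile subtracted, or with all barcodes of the cluster kept. Both rest on few UMIs, and the part of endothelial and club RNA was not tested.

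In endothelial-like cells 7 members reached 20 CPM and 3 were past the fold, all downward, against 7.16% of all genes. Cldn18 measured 163 and 321 CPM, a ratio of 0.508 (0.374 to 0.702). Cldn7 measured 11.8 and 70.5 CPM from 19 and 11 UMIs, a ratio of 0.167 (0.0755 to 0.388). Cldn3 measured 22.3 and 64.1 CPM from 36 and 10 UMIs, a ratio of 0.348 (0.169 to 0.786). Summed AT2 markers were also lower in the tumor-bearing library, at 16996 and 28302 CPM (11 and 12 of 12 at 20 CPM). So were summed AT1 markers, at 3222 and 4995 CPM (7 and 9 of 12 at 20 CPM). The Cldn3 call was lost in 3 of 6 alternatives, that of Cldn18 with all barcodes of the cluster kept (0.732), and that of Cldn7 in none of 6. Of the 2 larger endothelial-like clusters, that led by Gpihbp1 (333 and 39 cells) had a Cldn18 ratio of 0.450 (0.324 to 0.639) and that led by Car4 (70 and 12 cells) one of 1.07 (0.456 to 3.07). Cldn5 had a ratio of 1.17 (1.08 to 1.27) over the class, inside the fold. It was 1.43 (1.29 to 1.59) in the cluster led by Gpihbp1 and 1.05 (0.929 to 1.18) in that led by Car4. The ratios of F11r, 1.22 (0.842 to 1.81), and Tjp1, 0.942 (0.618 to 1.5), had wide intervals that held 1. The control value rests on 54 cells with a median of 2654 UMIs, and the part of AT2 and AT1 RNA was not tested.

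Cldn4 was, with Cldn10, among the rarest members in AT2 barcodes. It gave 78 UMIs (1.24 CPM) in the tumor-bearing and 66 UMIs (0.910 CPM) in the control library, a ratio of 1.36 (0.968 to 1.92), and 56 (0.832%) and 57 (0.570%) AT2 barcodes held one. Empty droplets carried 4.29 and 2.58 CPM. Endothelial-like cells, which should lack it, had 0 UMIs in 478 and 54 cells, which allows up to 1.86 and 19.2 CPM (3 counts of the class total). AT1-like cells of the tumor-bearing library also had 0, which allows up to 3.69 CPM, and those of the control library had 12 UMIs, 11 of them in the cluster with Serpinb9.

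Cldn4 was higher in a pair of small clusters. Among barcodes under the Sftpc limit, the cluster led by Gsta1 and Slpi, whose AT2 markers were high (44 and 83 barcodes), had 56.5 CPM (36.9 to 82.7) and 51.2 CPM (36.0 to 70.6), and 20.5% and 25.3% of its barcodes held a Cldn4 UMI, or 11.4% and 7.23% after thinning. Neuroendocrine-like cells had 1010 CPM (814 to 1238) from 92 UMIs in 17 cells and 180 CPM (48.9 to 460) from 4 UMIs in 6 cells. These cells also had 966 and 494 CPM of Cldn3 and 1108 and 1167 CPM of Cldn7. The Cldn4 ratio there, 5.62 (2.12 to 21.1), rests on 12 and 2 cells with a UMI.

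**Figure D5:**
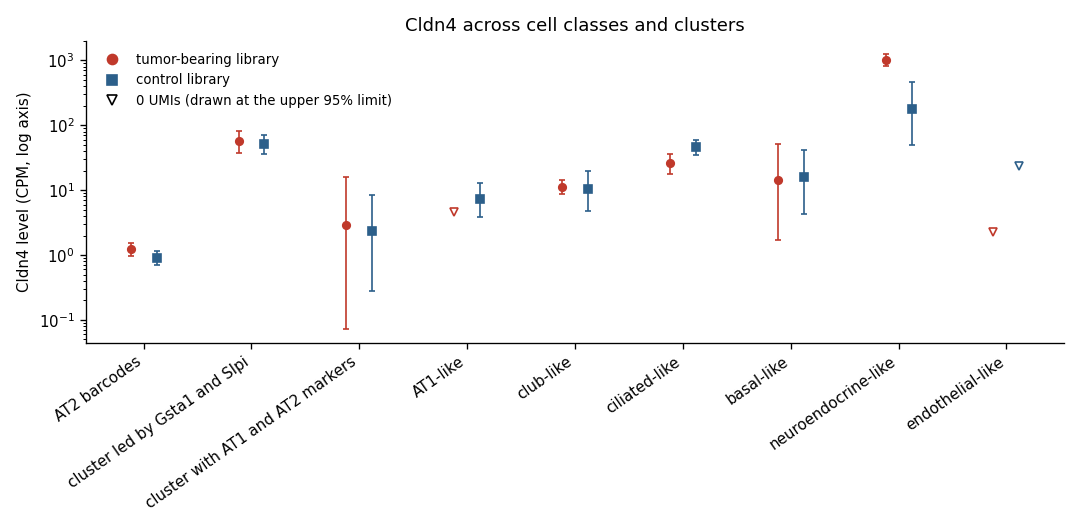
Cldn4 level (CPM, log axis) in AT2 barcodes, cell classes and 3 small clusters, tumor-bearing (circles) and control (squares), with 95% Poisson intervals and triangles for 0 UMIs. AT2 barcodes lie near 1 CPM, the cluster led by Gsta1 and Slpi at 56.5 and 51.2 CPM, and neuroendocrine-like cells at 1010 and 180 CPM.

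Other genes of cell junctions were read in AT2 barcodes beside the members. Of 78 further genes (27 claudins, 32 tight junction, 11 adherens junction and 8 desmosome genes), 28 reached 20 CPM, none of them a claudin, and 0 were past the fold in either direction, against 2.25% of all genes, a share at which a list of this size would hold few or none. The median log2 ratio was -0.05 for the 14 tight junction genes measured and -0.13 for the 10 adherens junction genes. It was -0.03 for the 4 desmosome genes, beside -0.04 for all genes. Below 0 lay 8 of the 10 adherens junction genes, and 2487 of all 4036 genes. Among tight junction genes, Crb3, which codes for a polarity protein, measured 114 and 121 CPM, and Lsr, which codes for a protein of tricellular contacts, 45.7 and 51.6 CPM. Esam, which codes for an adhesion molecule, measured 94.1 and 86.4 CPM, and Vasp, an actin regulator gene, 66.4 and 66.5 CPM. Among adherens junction genes, Cdh1, the E-cadherin gene, measured 94.2 and 110 CPM, a ratio of 0.859 (0.830 to 0.888), and Epcam, an epithelial adhesion gene, 184 and 156 CPM, a ratio of 1.18 (1.15 to 1.21). The catenin genes Ctnnb1 and Ctnna1 stood at 239 and 251 CPM and at 81.4 and 84.6 CPM. The desmosome genes Pkp4, Perp, Pkp2 and Dsp had ratios between 0.872 and 1.03.

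In the 4 classes with enough cells for a ratio, the shares of these genes past the fold can be set beside those of all genes. In AT1-like cells it was 1 of 36 measured, Pard3b (45.6 and 28.3 CPM), against 9.65% of all genes. In club-like cells (11.6% of all genes, 244 of them lower and 44 higher) 3 of 15 were lower: Lsr, Ctnna1 and Ctnnb1. Ctnnb1 had 57.8 and 105 CPM and a ratio of 0.551 (0.435 to 0.704). In ciliated-like cells (7.5% of all genes) 4 of 40 were higher: Cldn8 (99.0 and 65.4 CPM), Prkci (41.9 and 24.7 CPM), Esam and Pvrl3. In endothelial-like cells (7.16% of all genes) 4 of 21 were higher: Jam2 (139 and 76.9 CPM), Mllt4, which codes for afadin (190 and 83.4 CPM), Amotl1 and Ctnnd1. The endothelial-like ratios rest on 7 to 13 control UMIs a gene, and the intervals of Pard3b (1.02 to 2.54) and Jam2 (1.02 to 3.56) reached close to 1.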

How the data were processed

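Reads were processed with Cell Ranger 2.1.0, per the labels. The submitters' processing notes also name mm10, Seurat and R 3.5.3, with no role. Each deposited matrix holds UMI counts, not normalized, for all 737280 barcodes. No submitters' cell labels were used, so classes were rebuilt and may differ from theirs. Barcodes with at least 2000 UMIs were kept. They were clustered in scanpy 1.11.5 (30 components, 15 neighbours, Leiden resolution 0.5 for all barcodes and 1 for those with Sftpc under 15%) without the members and the other junction genes. Clusters were named by markers (at least 3 detected at 20 CPM). A cluster whose AT2 markers were raised stayed unnamed, by a limit chosen with the clusters in view. Scrublet's automatic threshold marked 0 and 1 barcodes and had not worked, so doublets were kept, and the 537 and 969 highest scores were removed as an alternative. Counts were summed per class and library and scaled to CPM. Intervals are exact at 95%: Poisson for levels, conditional binomial for ratios, Clopper-Pearson for shares. A class needed 50 cells in each library for a ratio. The calculation was tested on simulated counts. The members and lists were chosen with earlier results of these data known. All 10 members are described, and of the other junction lists up to 4 genes with the highest AT2 level and those past 1.5-fold. For each member reaching 50 CPM, the 3 genes with the most alike profile were named (1 is not reported here), and for Cldn4 up to 6 genes with the largest fold in AT2 barcodes holding it. Alternatives varied the UMI, Sftpc and CPM minimums, doublets, scaling, free RNA, mixed barcodes, cluster weights and the source of the classes.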

Additional observations from a re-analysis of the deposited data

Results flagged for a closer look

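The Cldn3 ratio lay on opposite sides of 1 in AT2 barcodes and in some other cells. The ratio of tumor-bearing over control was 1.06 in AT2 barcodes, with an interval above 1 but inside the 1.5-fold limit, and 0.228 (0.173 to 0.296) in AT1-like cells. Within the pair of AT1-like clusters it was 0.519 and 0.643, and with classes taken from markers 0.743, inside the fold. In endothelial-like cells the ratio was 0.348 (0.169 to 0.786), from 36 and 10 UMIs, and that call was lost in 3 of 6 alternatives, with 0 and 2 UMIs left after the empty droplet profile was subtracted. With 1 library per group the difference between these ratios was not tested.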

How the results depend on the processing

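Cldn5 was the member past 1.5-fold in AT2 barcodes. The count of such members fell from 1 to 0 with AT2 barcodes holding markers of other cells left out and with large AT2 clusters weighted equally. It also fell to 0 without the cluster led by Inmt, Mfap4 and Gpx3, an alternative chosen after seeing the data. With the empty droplet profile subtracted it was 0 as well, a loss fixed in advance by the free RNA share used. The count rose to 2, Cldn5 and Cldn10, with no CPM minimum. The members' median log2 ratio was -0.032 without barcodes holding markers of other cells, and between 0.02 and 0.10 in the other alternatives. Over the other classes 11 calls became 7 at a minimum of 5000 UMIs, which left too few endothelial-like cells, and 7 with the empty profile subtracted. Some calls were absent from the main run. Classes from markers added Tjp1 in club-like (lower) and Cldn10 in endothelial-like cells (higher). Keeping all barcodes of the cluster added Cldn10 (higher) and F11r (lower) in club-like and Tjp1 (higher) in ciliated-like cells. No CPM minimum added Cldn4 in AT1-like cells (lower). The other junction genes past the fold in AT2 barcodes went from 0 to 3 with no minimum (Jam2, Jam3 and Pard6g) and to 1 (Pvrl3, lower) without barcodes holding markers of other cells. All 10 members kept their highest class in the 5 alternatives run for it, which were chosen after seeing the data. The minimum of 1000 UMIs was not run for the other classes, which were clustered from 2000 UMIs. Depth limits Cldn4 and Cldn10 in AT2 barcodes and every ratio that uses the 54 control endothelial-like or 67 control club-like cells. No paired analysis was possible because each group had 1 library.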

Other observations

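A typical AT2 barcode showed few of the 10 genes at once. After thinning to 2000 UMIs, 41.5% of tumor-bearing and 41.7% of control AT2 barcodes held exactly 2 of them, and 5.07% and 5.37% held none. Cldn3 and Cldn18 were found together in 48.6% and 48.1%, Cldn3 without Cldn18 in 24.2% and 22.7%, and neither in 9.04% and 9.53%. AT1-like cells held a median of 3 members at the same depth, and 65.4% and 68.7% of them held 3 or more, against 26.9% and 26.0% of AT2 barcodes.

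Only 16 and 17 AT2 barcodes held a Cldn4 UMI after thinning. Genes with at least 100 CPM in these same barcodes were ranked by their fold over the other AT2 barcodes. The largest folds were those of Mt2, a metallothionein gene (8 and 5 UMIs), Tppp3 (14 and 18 UMIs), Ly6a, Mt1, Stx8 and Cdc26, each from few UMIs. In the other AT2 barcodes Mt2 had 6.11 and 24.3 CPM. The minimum and the ranking both used the barcodes holding Cldn4, so the folds carry no test. The intervals for Stx8 and Cdc26 held 1 in both libraries, and that for Ly6a did in the tumor-bearing library. Those for Mt2, Tppp3 and Mt1 left out 1 in both.

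Over the 6 classes of both libraries, 12 profiles that share their libraries, the genes most like Cldn5 were Ramp2 (Pearson r 0.997), Ace (0.995) and Tmem100 (0.992), of which Ramp2 and Tmem100 are among the markers that named the endothelial-like class. Cldn10 was like Scgb3a2 (0.972), a club marker, and Lrrc26 (0.969). Cldn18 was most like Slc52a3 (0.970), Mrpl14 (0.958) and Lrrk1. Tjp1 was most like Rhog (0.992), Inpp5k (0.986) and Wwtr1 (0.985), and F11r like Itga3 (0.986), Cap1 (0.985) and Tfg (0.984). Ocln was most like Prps1 (0.964), Nipa1 (0.956) and Wbp2 (0.951), and Cxadr like Prkci (0.968), Ppfibp2 (0.963) and Fuca2 (0.956). Cldn3 was most like Chchd10 (0.937), Tst and Ldhb (both 0.929), and Cldn7 like Vimp, Faah (both 0.919) and Myh14 (0.913). These values describe likeness over few classes and carry no test.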
